A study of Caenorhabditis elegans with 4 samples.

Results

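The proteasome is the large protease that degrades ubiquitin-tagged proteins. Its core particle stacks rings of alpha subunits (pas genes in the worm) and beta subunits (pbs genes), and the beta rings carry the proteolytic sites. The regulatory particle that caps the core has a base, with a ring of ATPases (rpt genes) that unfold substrates and thread them into the core, and a lid (the remaining rpn genes) that holds the ubiquitin-removing subunit. The subunits are built in fixed proportions, and the complex is needed in essentially all cells.

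Described here are 31 genes for subunits of this complex in the nematode Caenorhabditis elegans. They were taken as a named list: 7 of the alpha ring, 7 of the beta ring, 6 ATPases of the base, 3 other base subunits and 8 lid subunits. The subunit genes rpn-13 and dss-1 are not in it and were counted among proteasome partners. All 31 symbols were found in the gene table, among 19971 protein-coding genes on the nuclear chromosomes. By chromosome, 10 lie on I, 7 on II, 6 on III, 3 on IV, 5 on V and 0 on X. The genes are short, with a median length of 1311 bp against 2009 bp for the other 19940 protein-coding genes.

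The data are ChIP-seq peak lists from whole late embryos of strain JA1597, collected from bleached adults and aged for 3.5 hours at room temperature. All 4 lists come from this strain, which carries cfp-1 fused to gfp under the dpy-30 promoter, inserted at a single Mos site on chromosome IV. CFP-1 is the CXXC zinc finger subunit of the COMPASS complex, which methylates histone H3 at lysine 4, and the trimethylated form (H3K4me3) typically marks promoters of transcribed genes. CFP-1::GFP was precipitated with a rabbit serum against GFP and the mark with an antibody against H3K4me3. Each antibody has 2 lists, from the samples numbered RC03 and RC04. Whether the native cfp-1 gene was intact is not given in the labels, nor is the origin of RC03 and RC04, whose difference may thus be only technical. Untagged embryos were not analysed here, and the part of GFP-independent signal in the CFP-1 values was not tested. The lists hold 9216 and 9256 CFP-1 peaks and 11357 and 12343 H3K4me3 peaks, with no read counts, so the depth is unknown. Of 6 genes for embryonic organ regulators, hlh-1, nhr-25 and pha-4 had H3K4me3 and elt-2, elt-1 and unc-86 did not, whereas none of 6 genes used by adults or sperm (vit-2, vit-5, vit-6, col-19, msp-142 and msp-19) had it. Genes of adults and sperm cannot tell embryos from larvae, and the peaks' own names abbreviate a larval stage.

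A gene was called for an antibody when both of that antibody's lists held a peak within 500 bp of a gene end. Either end counted, because the gene table gives no strand and the transcript start is therefore one of the 2 ends. A peak near the transcript's far end, or one that belongs to a neighbouring gene, is counted too, for proteasome genes and background alike. The gene table is of assembly WBcel235 and the peaks are in build ce10. Chromosome lengths differ between them by about 100 bp at most, so distances to gene ends are approximate, whereas widths and distances between peaks are exact.

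Nearly all proteasome genes carried both CFP-1 and H3K4me3. CFP-1 was called at 27 of the 31 genes (87.1%), against 25.9% of the other protein-coding genes. H3K4me3 was called at 29 (93.5%), against 30.5% of the others. Peaks in all 4 lists were found at the same 27 genes that had CFP-1, against a background of 23.1%, or 4608 of 19940 genes. Each single list gave the same count as its antibody's pair, 27 in either CFP-1 list and 29 in either H3K4me3 list, so no proteasome gene was called in only 1 list. CFP-1 without H3K4me3 occurred at 0 of the 31 genes and at 558 of the 19940 others, a share too small for the 0 to set the members apart. H3K4me3 was called without CFP-1 at 2 members, rpt-3 and pas-1, and at 1481 of the others. At both members a CFP-1 peak beyond the 500 bp limit overlapped the called H3K4me3 peak in each sample. Of the genes called for H3K4me3, 93.1% of members and 75.7% of the others were also called for CFP-1. Neither antibody was called at pbs-5 and rpt-4, whereas 66.7% of the other genes had neither.

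The genes are a fixed named list and not replicates of a condition. Moreover, 2 lists against 2 cannot give a two-sided exact permutation p under 0.333. These shares therefore stand beside their background without a test. Proteasome genes also sit in denser surroundings than the average gene. A protein-coding neighbour lay less than 500 bp away at 26 of the 31 genes (83.9%) and at 64.6% of the others, and among the others with such a neighbour 27.5% had peaks in all 4 lists, against 15.1% of those without one. The 5 proteasome genes with no such neighbour (pas-5, pas-6, pbs-2, rpt-1 and rpt-5) all had peaks in all 4 lists. Their gaps to the nearest gene were only 503 to 789 bp. Each still had another gene's end within 500 bp of its highest CFP-1 peak in RC03, so this subset does not remove peaks shared with neighbours. On the autosomes alone the background was 23.7%, and by chromosome it ran from 13.9% on V to 34.4% on III. Members had peaks in all 4 lists at 9 of 10 genes on I, 6 of 7 on II, 5 of 6 on III, 3 of 3 on IV and 4 of 5 on V. The count depends on how near a peak must lie, since a peak that covers a gene end was found in all 4 lists at 11 members (35.5%) and 9.0% of the others. With 1 gene end alone, the lower position gave 15 members (48.4%) and 12.9% of the others, and the higher position 19 members (61.3%) and 13.4%.

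Related gene groups gave shares on both sides of that of the proteasome. Ribosomal protein genes, with symbols beginning rpl- or rps-, had peaks in all 4 lists at 75 of 78 (96.2%). No symbol beginning rla- was found, and genes with symbols beginning rplp- were not in this list. Aminoacyl-tRNA synthetase genes, which charge tRNAs for translation, had them at 21 of 33 (63.6%). Genes for ubiquitin and its conjugating machinery had them at 21 of 26 (80.8%), among them ubq-1 (polyubiquitin), uba-1 (the ubiquitin-activating enzyme) and the cullins cul-1 to cul-4, but not cul-5 and cul-6. Genes for proteasome partners had them at 14 of 22 (63.6%). In that group cdc-48.1, the segregase that extracts ubiquitinated proteins, scored 190.9 and 186.6 for CFP-1, and rpn-13, a ubiquitin receptor of the base, scored 25.2 and 32.7. Among the 8 partners outside the call were skn-1, whose SKN-1A form activates proteasome genes in the worm, png-1 and ddi-1, which process that form, and dss-1, the small lid subunit. Of these, ddi-1 had H3K4me3 in both lists and CFP-1 in RC04 only.

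**Figure D1:**
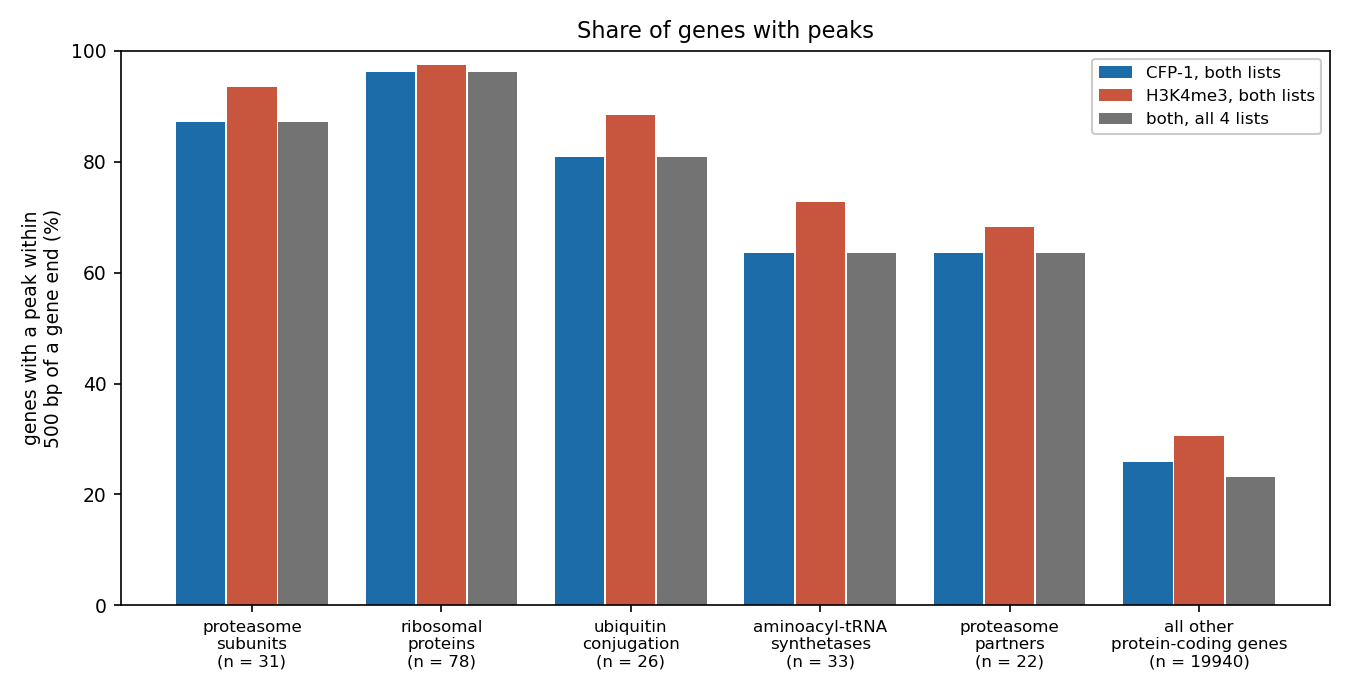
Share of genes (%, vertical axis) with a peak within 500 bp of a gene end, for CFP-1 in both lists, H3K4me3 in both lists, and both antibodies in all 4 lists, by gene group with the number of genes. The proteasome bars stand at 87.1, 93.5 and 87.1%, and those of all other protein-coding genes at 25.9, 30.5 and 23.1%.

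Peak strength is the authors' own score, a −log10 value whose underlying statistic, p or q, is not stated. It was read as a percentile rank within its list, because scores depend on depth and width and lists are not on 1 scale. Where several peaks lay at a gene, the one with the highest score stands for the gene. H3K4me3 at the proteasome genes was uniformly strong. Its scores ran from 49.4 to 104.1 in RC03 and from 47.7 to 110.0 in RC04, while the median over all peaks was 6.84 and 6.61. All 29 called genes had a mean percentile rank above 75, against 69.5% of the other called genes, and the lowest was 84.8. The median rank was 92.6 (quartiles 90.3 and 95.7), against 84.8 (70.7 and 92.9) for the other called genes.

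CFP-1 varied far more from gene to gene. Its scores ran from 6.38 to 155.2 in RC03 and from 6.69 to 182.3 in RC04, and the median over all peaks in RC03 was 12.1. The median rank over the 27 genes was 84.7 (quartiles 74.8 and 95.6), against 77.6 (55.3 and 90.2) for the other called genes, and 20 of 27 (74.1%) lay above 75, against 53.9%. The median CFP-1 rank was 91.7 for ribosomal protein genes and 78.3 for aminoacyl-tRNA synthetase genes, so the proteasome lay between them. For H3K4me3 the order was the same, at 94.6, 92.6 and 87.9. Averaged over lists, the members' median CFP-1 score was 63.4 ± 1.09 (SD, n = 2 lists), and their median H3K4me3 score was 71.3 ± 4.17 (SD, n = 2 lists).

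**Figure D2:**
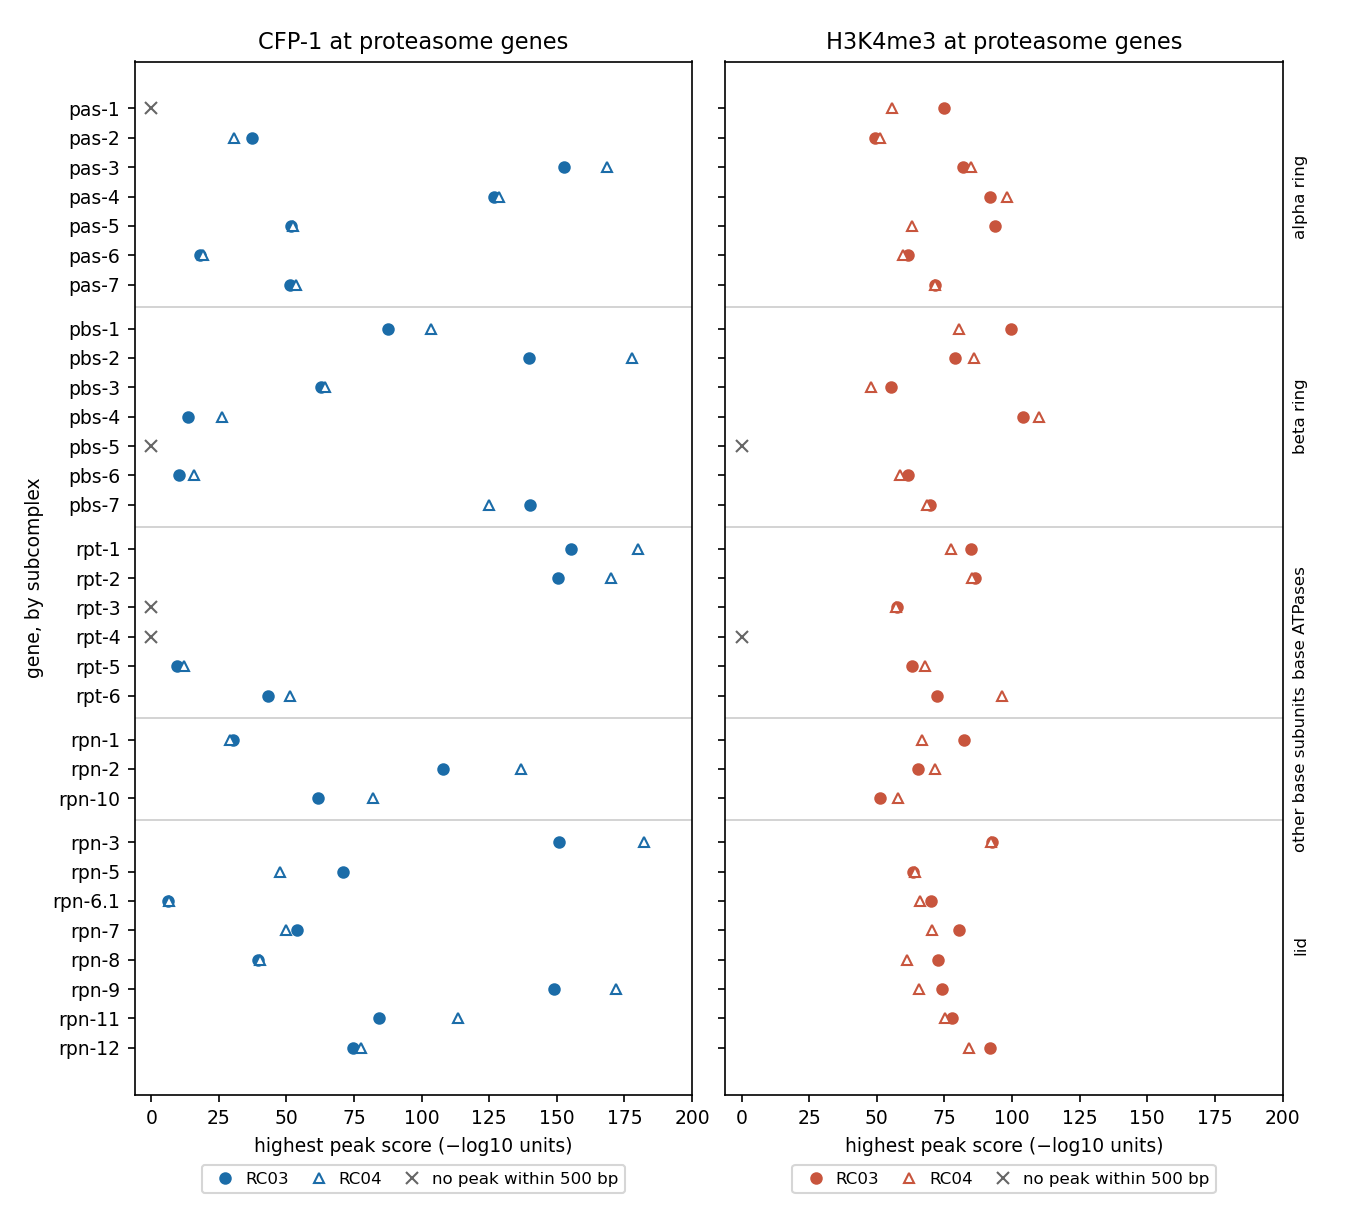
Score of the highest peak within 500 bp of a gene end (−log10 units, horizontal axis) for each of the 31 genes, ordered by subcomplex, in RC03 (filled circles) and RC04 (open triangles), with a cross at 0 where neither list had a peak, which is no measured score. CFP-1 scores spread from 6.38 to 182.3, whereas all H3K4me3 scores lie between 47.7 and 110.0.

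In the alpha ring, whose subunits gate the entry to the core, H3K4me3 was called at 7 of 7 genes and CFP-1 at 6. The highest CFP-1 rank belonged to pas-3, which scored 152.6 in RC03 and 168.5 in RC04 (161 ± 11.3, SD, n = 2). Its H3K4me3 scores were 81.8 and 84.7, in a peak of 2201 and 2240 bp that is more than 1 gene length wide, since pas-3 spans 939 bp. The strongest H3K4me3 of the ring was at pas-4, with 91.9 and 98.2, where CFP-1 scored 126.6 and 128.5. Both genes stood high for both antibodies in both lists.

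The lowest CFP-1 of the ring was at pas-6, at 18.1 and 19.2, and the lowest H3K4me3 at pas-2, at 49.4 and 51.3. CFP-1 at pas-2 scored 37.3 and 30.7. The remaining pair, pas-5 and pas-7, had CFP-1 scores between 51.5 and 53.5. The gap from pas-6 to pas-3 was far larger than the difference between lists at either gene.

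For pas-1 the H3K4me3 peak scored 74.7 in RC03 and 55.7 in RC04, with a width of 675 and 622 bp, the narrowest of all members. CFP-1 missed the distance limit at this gene, although its nearest peak overlapped the H3K4me3 peak in either sample. The nearest CFP-1 peaks, at chr V positions 14423203 to 14423640 in RC03 and 14423233 to 14423551 in RC04, began 585 and 615 bp from the gene end and scored 19.1 and 30.03. Besides pas-1, rpoa-12 (an RNA polymerase I subunit gene) and rrsr-1 have an end within 500 bp of the H3K4me3 peak.

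In the beta ring, 6 of 7 genes were called for both antibodies. The strongest CFP-1 was at pbs-2, the subunit whose yeast and mammalian counterpart cuts after basic residues, with 139.8 and 177.9. The gene had a CFP-1 peak at each end, and the second one, at the lower position, scored 127.6 and 119.5. Scores at pbs-7 were 140.1 and 125.0, and at pbs-1, the counterpart of the caspase-like subunit, 87.6 and 103.5. CFP-1 at pbs-3 scored 62.6 and 64.2. H3K4me3 there, at 55.1 and 47.7, had the lowest rank of the ring.

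A gene with strong H3K4me3 and weak CFP-1 was pbs-4. Its H3K4me3 scores, 104.1 and 110.0, were the highest of all proteasome genes, at a mean rank of 99.4. The same H3K4me3 peak was called for mrrf-1, with a gap of 0 bp to pbs-4, so it cannot be assigned to pbs-4 alone. The CFP-1 peak inside that H3K4me3 peak scored only 13.4 in RC03 and 26.4 in RC04, ranks of 53.0 and 68.3. This difference of 15.4 rank points was also the largest between CFP-1 lists at any member. Next came pbs-6, with CFP-1 scores of 10.2 and 15.8, 12.5 rank points apart.

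The catalytic chymotrypsin-like subunit is encoded by pbs-5, the beta ring gene that was not called. Its nearest H3K4me3 peaks, at chr I positions 14720978 to 14722049 in RC03 and 14721063 to 14722115 in RC04, scored 72.5 and 62.2 and began 501 and 586 bp from the gene end, just outside the limit. With gene ends moved by 100 bp to higher positions, about the most the assemblies differ, 30 members had H3K4me3, pbs-5 being the addition. Its missing H3K4me3 call thus lies within the uncertainty of the gene ends. CFP-1 peaks lay 854 and 898 bp away with scores of 13.3 and 13.5. The gene K05C4.2 lies 110 bp from pbs-5.

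Of the ATPases, rpt-1, rpt-2, rpt-5 and rpt-6 were called for both antibodies. The highest mean CFP-1 rank of all members, 98.6, belonged to rpt-1, with 155.2 and 179.9, and among the ATPases rpt-2 followed with 150.4 and 169.9. H3K4me3 at rpt-2 was likewise the highest of the ATPases by rank, at 86.4 and 85.3. In contrast, CFP-1 at rpt-5 scored 9.63 and 12.1, at a peak 412 and 389 bp from the gene end, although H3K4me3 there scored 62.8 and 67.6. The widest H3K4me3 peak of all members lay at rpt-6, 3561 bp in RC03 and 3517 bp in RC04. Its score, 72.2 and 96.3, differed by 7.45 rank points between lists, the most for that mark at any member. Most of this peak lay outside rpt-6, beyond the gene's lower end, and the gap to glrx-5 was 0 bp. The peak therefore cannot be assigned to rpt-6 alone.

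The 2 ATPase genes outside the call differ in kind. H3K4me3 at rpt-3 scored 57.6 and 57.0, and the nearest CFP-1 peaks, with scores of 18.4 and 44.3, lay 569 and 576 bp from the gene end. These CFP-1 peaks lay inside the H3K4me3 peak of the same sample. At rpt-4 all peaks lay within the annotated gene of 4010 bp, away from both ends. The CFP-1 peak at chr II positions 43385 to 44063 in RC03 and 43366 to 44056 in RC04 scored 101.9 and 104.5, and the H3K4me3 peak around it scored 91.9 and 103.2. The annotated span of rpt-4 overlaps nfyc-1, a nuclear factor Y subunit gene, so these peaks cannot be assigned to either gene. With peaks anywhere in a gene or within 500 bp of it, 28 members (90.3%) had both antibodies, rpt-4 being the addition, against 25.5% of the others.

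The 3 other base subunits were all called. Among them rpn-2, a scaffold of the regulatory particle, had the strongest CFP-1, at 107.8 and 136.7, and H3K4me3 of 65.1 and 71.4. The ubiquitin receptor rpn-10 had CFP-1 scores of 61.8 and 82.0 and the lowest H3K4me3 of the 3 genes, 51.3 and 57.9. For rpn-1, the other scaffold, the order of the antibodies was the opposite, with CFP-1 at 30.3 and 29.0 and H3K4me3 at 82.1 and 66.7.

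The lid had CFP-1 and H3K4me3 at 8 of 8 listed genes, but dss-1, counted with the partners, was called for neither. CFP-1 was strongest at rpn-3, with 150.7 and 182.3, and at rpn-9, with 148.8 and 171.9. The deubiquitinating subunit rpn-11 had 84.0 and 113.3, rpn-12 had 74.6 and 77.7, and rpn-8, the partner of rpn-11, had 39.5 and 40.2. At rpn-5 CFP-1 scored 71.0 in RC03 and 47.7 in RC04, with the lowest H3K4me3 rank of the lid, and at rpn-7 it scored 53.9 and 49.7. H3K4me3 scores of the lid spanned only 61.0 to 92.6 over both lists.

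The lid gene rpn-6.1, a helical-repeat subunit known in the worm from work on longevity and proteotoxic stress, had the weakest CFP-1 of the 27 genes. Its CFP-1 peaks at chr III positions 6962113 to 6962310 in RC03 and 6962146 to 6962339 in RC04 scored 6.38 and 6.69, a mean rank of 29.9. H3K4me3 nearby was strong, at 70.1 and 65.9 (mean rank 91.4). This difference of 61.5 rank points was the largest of all members, followed by 43.8 at rpt-5 and 38.7 at pbs-4. In the other direction, the H3K4me3 rank minus the CFP-1 rank was at most a few points, with -6.1 at rpn-9, -4.09 at pbs-7 and -3.11 at rpn-2. H3K4me3 outranked CFP-1 at 18 of the 27 genes. Across the 27 genes Spearman's rho between CFP-1 and H3K4me3 rank was 0.47, against 0.55 over the other called genes, as a description only, since the points share lists and some peaks serve neighbouring genes.

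**Figure D3:**
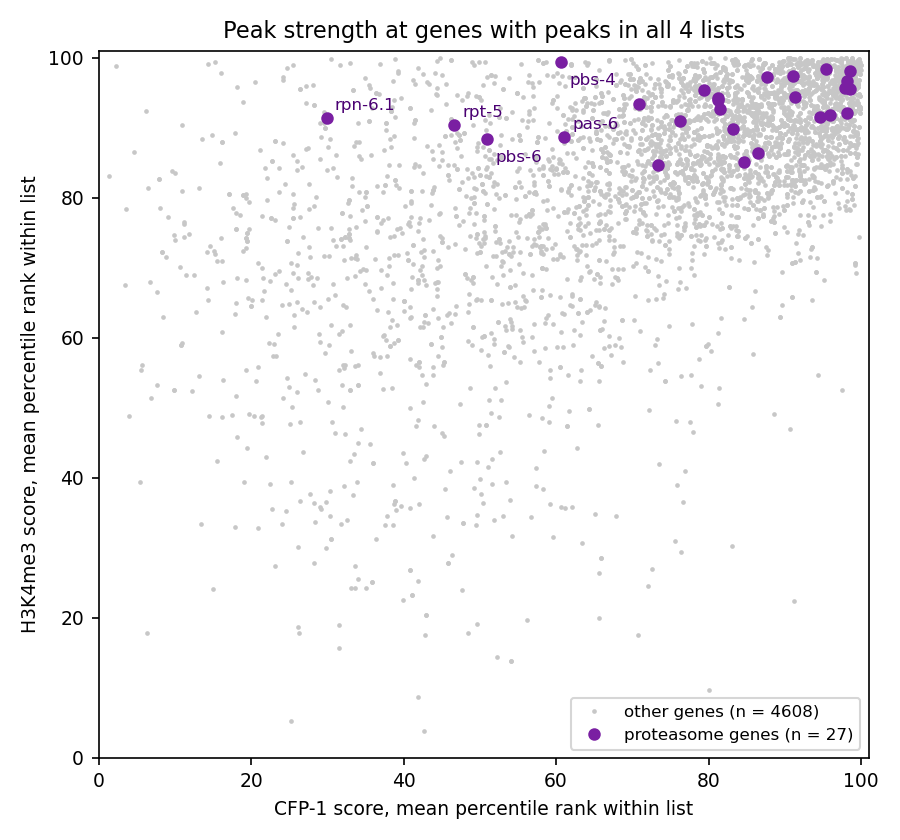
Mean percentile rank of the highest peak within its list for CFP-1 (horizontal axis) and H3K4me3 (vertical axis) at genes with peaks in all 4 lists. The 27 proteasome genes (large points) lie above a rank of 84 for H3K4me3 and run from 29.9 to 98.6 for CFP-1, among 4608 other genes (small points).

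The 2 lists of an antibody ranked the proteasome genes alike. Between RC03 and RC04 the median absolute rank difference was 1.59 (CFP-1) and 1.97 (H3K4me3), against 2.92 and 2.76 at the other called genes. The highest peak was taken in each list, so a difference can compare different peaks, as for CFP-1 at pas-5 and H3K4me3 at rpt-1. Members also ranked higher than the other called genes, and the part of this in their smaller differences was not tested. CFP-1 was higher in rank in RC04 at 16 of 27 genes, and H3K4me3 at 19 of 29. For H3K4me3 the largest differences after rpt-6 were at pas-5, with scores of 93.7 and 63.0, and at pas-1. The separation between strong genes such as rpt-1 and weak ones such as rpn-6.1 was therefore far above the spread between lists.

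H3K4me3 peaks were wide and CFP-1 peaks narrow. The median H3K4me3 width over the called members was 1408 bp ± 27.6 (SD of the list medians, n = 2), against 1052 bp for the other called genes. For CFP-1 it was 389 bp ± 7.07 (SD of the list medians, n = 2), and averaging both lists at each gene first gave 374.5 bp, against 362 bp for the others. Ribosomal protein genes had wider H3K4me3, with a median of 1805 bp, and synthetase genes narrower, with 1166 bp. Within the proteasome the widest H3K4me3 lay at rpt-6, pas-3 and rpn-3, with means of 3539, 2220.5 and 2170 bp, and the narrowest at pas-1, pas-6 and pbs-3, with 648.5, 815 and 951.5 bp.

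An exception to the narrow CFP-1 peaks was rpn-3. The CFP-1 peak there spanned 3918 bp in RC03 (chr III 8443410 to 8447327) and 4034 bp in RC04 (chr III 8443444 to 8447477), against 196 to 719 bp for the other members in RC03. It was the only member at which CFP-1 was wider than H3K4me3, which spanned 2214 and 2126 bp. The interval also reaches ends of ufbp-1 and of hsp-110, a chaperone gene of the heat shock family. Its score, 150.7 and 182.3, therefore cannot be assigned to rpn-3 alone.

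CFP-1 peaks mostly overlapped the mark, as measured in ce10, and the proteasome genes did so about as often as other genes called for both antibodies. The highest CFP-1 peak overlapped an H3K4me3 peak from the sample of the same number at 26 of 27 genes in either sample (96.3%), against 96.6% of the other genes called for both in RC03 and 96.4% in RC04. It lay wholly inside that peak at 22 genes (81.5%) in RC03 and 23 (85.2%) in RC04, against 70.2 and 70.7%. Set against the gene's highest H3K4me3 peak alone, overlap at members was 23 of 27 (85.2%) in either sample, below the 92.1 and 91.7% of the others. Some members thus had their highest CFP-1 peak and their highest H3K4me3 peak at different places, as at pbs-2 and pbs-6 in both samples. The midpoints of these highest peaks were a median of 113.5 and 133.5 bp apart, against 178.5 bp in either sample for the others. The gene whose highest CFP-1 peak overlapped no H3K4me3 peak in either sample was rpn-6.1, whose weak CFP-1 peak sits between 2 H3K4me3 peaks in both samples. In RC04 that CFP-1 peak starts at position 6962146, right beside an H3K4me3 peak that ends at 6962144, so the lack of overlap rests on peak boundaries. At pas-5, pas-6, pbs-6, rpn-3 and rpt-1 the CFP-1 peak crossed the edge of the mark in at least 1 of the samples.

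**Figure D4:**
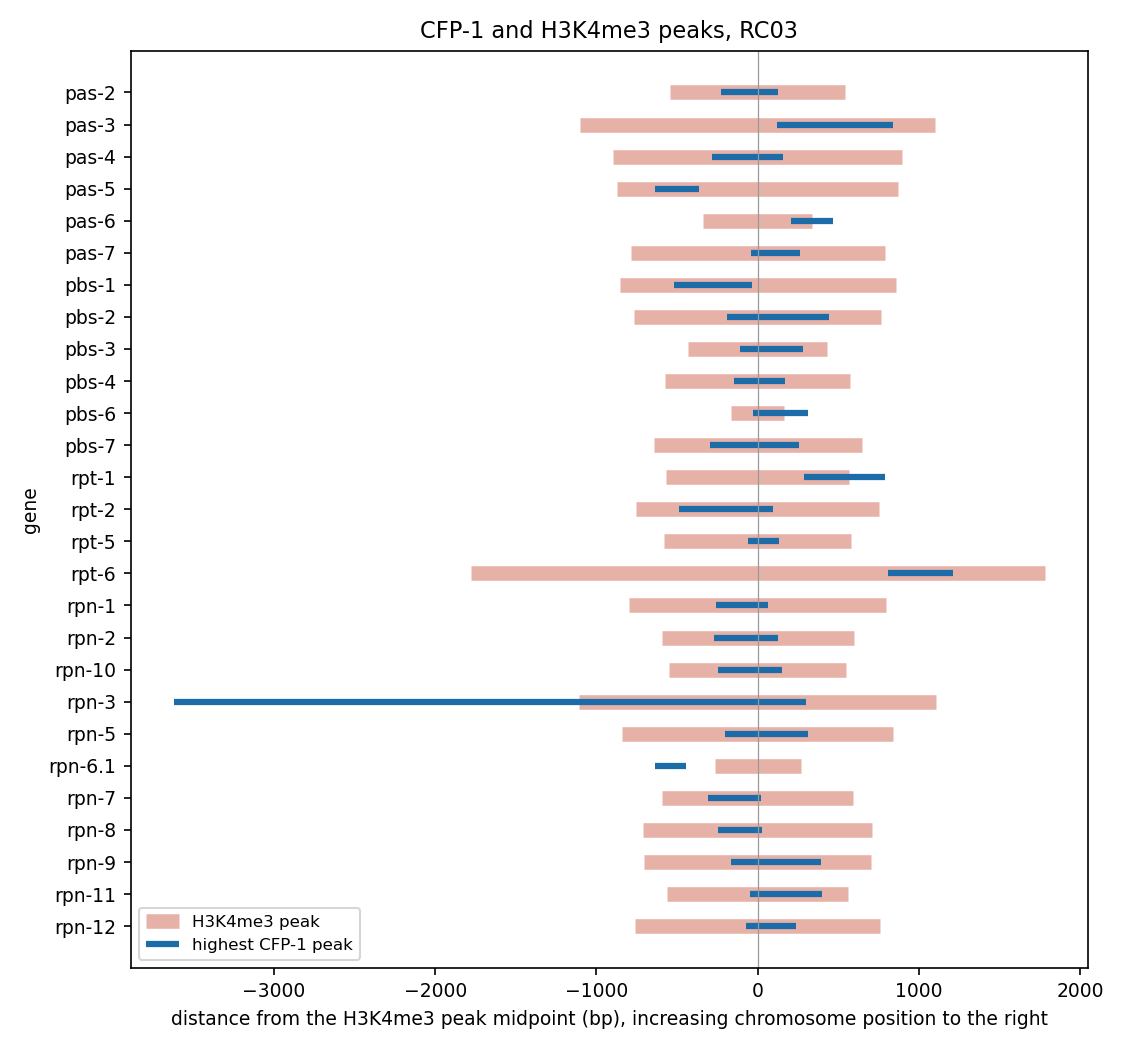
Extent of the highest CFP-1 peak (narrow bar) and of the H3K4me3 peak it overlaps most, or the nearest one at rpn-6.1 (broad bar), for 27 proteasome genes in RC03, in bp from the H3K4me3 midpoint. CFP-1 lies wholly inside the mark at 22 genes, extends far past it at rpn-3 and lies outside it at rpn-6.1.

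Some genes carried both antibodies at each end. All 4 lists had peaks near 1 end at 20 genes and near both ends at 7, namely pas-3, pas-5, pas-6, pbs-2, pbs-6, rpn-3 and rpt-1. That is 22.6% of the list, against 3.36% of the other genes. Both shares are over all genes, of which 87.1 and 23.1% had peaks in all 4 lists, so part of this gap repeats that of the calls. The genes are short, and the neighbours are close. At pas-3, a single H3K4me3 peak reached both ends. At pbs-2, by contrast, separate H3K4me3 peaks of 2006 and 1537 bp in RC03 lay at either end, with scores of 78.8 and 76.9. For rpt-1 the CFP-1 peaks at both ends were likewise strong, with 155.2 and 133.0 in RC03 and 179.9 and 125.8 in RC04. Some of the 7 genes had only weak peaks at 1 end. At the lower end of pas-5, the highest H3K4me3 peak scored 3.58 in RC03 and 4.5 in RC04. At the lower end of pas-6, CFP-1 scored 10.4 and 3.84, and H3K4me3 scored 5.49 and 6.75. CFP-1 at the higher end of pbs-6 scored 7.12 and 6.3. Peaks near both ends were therefore not always strong at both.

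The strongest peak of most members was also near a neighbouring gene. Of the 29 called members, 27 had the end of at least 1 other protein-coding gene within 500 bp of their highest peak in RC03, taking CFP-1 where it was called (93.1%), against 59.7% of the 6647 other genes called for either antibody. This count was added after the other values were seen, and the part of the closer neighbours in it was not tested. The exceptions were pbs-4 and rpt-6, whose highest CFP-1 peaks had no such neighbour. The H3K4me3 peak of pbs-4 was nevertheless also called for mrrf-1, its nearest gene. At rpt-6 most of the H3K4me3 peak lay outside the gene, whose gap to glrx-5 was 0 bp. Examples, chosen after the values were seen, are rpb-3 (an RNA polymerase II subunit) at pas-4, eif-6 at pbs-2, snr-4 at rpt-1 and use-1 at pas-3. Which gene of a pair a peak belongs to cannot be told apart without strand. No proteasome gene was the neighbour of another.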

How the data were processed

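The submitters' processing notes name BWA, MACS2 version 2.0.10 and build ce10. Which control, settings and cut-off the peak calling used was not stated. Each of the 4 deposited lists is from 1 sample, and its score is a −log10 value; the lowest lie from 1.30 to 1.41, close to 1.30, the −log10 of 0.05. Labels give late embryos, which were taken as the stage, but the peaks' own names hold an abbreviation of a larval stage.

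Gene ends came from a RefSeq gene table of assembly WBcel235, which gives no strand. Calls and choice of peak are as stated in the report. Members and gene lists were chosen with earlier results of these data known, so no gene-list test was run. Genes named in the text are the uncalled members, the highest and lowest rank of each antibody per subcomplex, the 3 widest and narrowest H3K4me3 peaks and the largest rank differences between antibodies or lists; further members and neighbours were named after their values were seen. Offsets along transcription, operon neighbours, CpG content and motifs were planned but not run, as strand and sequence were not used here. The call code was tested on simulated data. Python 3.11.15, numpy 2.4.6, pandas 2.3.3 and matplotlib 3.10.9 were used.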

Additional observations from a re-analysis of the deposited data

How the results depend on the processing

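The share of proteasome genes with peaks in all 4 lists lay above that of the other genes under every planned setting, from 35.5 to 96.8% against 9.0 to 27.8%. No paired analysis was possible because no result comes from a test that a pairing term could enter; same-numbered lists of both antibodies were matched only to measure peak positions. Of 109 counts under alternatives, 95 stayed within 1.5 times the reported count, shifts of gene ends by 100 bp among them. With 31 genes in the list, the members' counts could pass that limit only by a drop. Of 71 medians under alternatives, 34 moved by more than the SD of the list medians. Both totals include values of 1 antibody with a list of the other left out. Those values could not change and are counted as unchanged, so the unchanged shares are no measure of stability. A peak that covers a gene end gave CFP-1 at 11 members and both antibodies at 11, at 1794 other genes, and at 19 ribosomal protein, 7 synthetase, 6 proteasome partner and 6 ubiquitin conjugation genes. Alternatives chosen after seeing the data were genes with no neighbour within 500 bp (5 members of 5 and 1064 others), the lower gene end (CFP-1 15, H3K4me3 18, both 15 members and 2581 others), the higher gene end (2662 others), autosomes and gene bodies. Members' median CFP-1 rank was 86.45 within 250 bp, 85.58 within 1000 bp, 83.15 for the nearest peak and 63.04 among called genes, and their median H3K4me3 rank 93.42 within 1000 bp and 73.2 among called genes. Median CFP-1 width was 384 bp within 250 bp and 414 bp for the merged interval of both lists, which gave 1527 bp for H3K4me3. Leaving out a CFP-1 list gave a median CFP-1 width of 384 bp (without RC03) and 394 bp (without RC04), both above the 374.5 bp from both lists. Leaving out an H3K4me3 list gave a median H3K4me3 rank of 92.64 (without RC03) and 92.53 (without RC04). The cause of the remaining shifts was not tested. With no read counts, a gene without a peak cannot be told from one too shallowly sequenced. Same-strand neighbours, offsets along transcription, CpG content and motifs were not run.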
